A study of Mus musculus with 4 samples.

Results

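Smooth muscle cells of the embryonic day 17.5 (E17.5) small intestine were chosen by their measured RNA: Acta2, Tagln, Myh11 and Actg2 together had to make up at least 1% of the unique molecular identifiers (UMIs, counts of distinct RNA molecules). A cell was kept if 500 or more genes were detected in it and no more than 20% of its UMIs were mitochondrial. The rule found 105 muscle cells among 4602 kept cells of the E17.5 library, and among 15800 kept cells in all 4 libraries. Of the kept E17.5 cells, 2.28% were muscle cells (95% Clopper-Pearson interval 1.87% to 2.76%). These intervals, and the exact Poisson intervals given for levels, cover counting error only.

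The series profiled intestinal cells of Bmi1-GFP reporter mice, a line in which GFP is driven from the locus of the Polycomb gene Bmi1. It holds 1 library of the 10x Genomics 3′ kind for each of embryos at E12.5, embryos at E17.5, adults and adults that had been irradiated, so every group has 1 library and no difference has a replicate check. Every group carried the reporter, and the embryonic groups were untreated as far as the labels state. The labels call the input epithelial cells isolated by fluorescence-activated sorting, and the design text calls them Bmi1-expressing; they give neither the gates nor the number of embryos or animals pooled. Shares of cells in such a library can be set by the sort as well as by the tissue, and the 2 cannot be told apart here.

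The intestinal wall carries an inner circular and an outer longitudinal layer of visceral smooth muscle, with a thinner muscle sheet beneath the mucosa. Its cells contract by sliding actin on smooth muscle myosin, a process switched on by calcium, calmodulin and myosin light chain kinase. The genes of the contractile apparatus are driven by serum response factor (SRF) and its partner myocardin (Myocd), which bind a DNA element named the CArG box. Visceral muscle also releases ligands that act on nearby nerves and epithelium.

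Because promoters of many smooth muscle genes carry a CArG box, RefSeq promoter windows (250 bases before to 50 after the start, GRCm38.p6) were searched for it on both strands, on which it reads alike. Only the strict form was searched: CC, 6 bases of A or T, then GG. The box was present in 6 of the 26 contractile genes with a promoter entry (23.1%), in 1.81% of all 27025 promoters, and in 1.89% of the 6599 promoters of genes compared with the other E17.5 cells. Among genes at least 4-fold higher in muscle cells, 27 of 540 promoters held it against all other cells (5%) and 12 of 158 against collagen cells (7.59%). Stretches around the box, in capitals, are shown for 4 contractile genes and for 2 genes, Actc1 and Asb2, that stood out against collagen cells. They are Myl9 (chr2:156775258-156775357, + strand), Cnn2 (chr10:79988499-79988583, + strand), Vcl (chr14:20929148-20929225, + strand), Fhl1 (chrX:56779536-56779635, + strand), Actc1 (chr2:114052888-114052967, - strand) and Asb2 (chr12:103356011-103356110, - strand).
Myl9: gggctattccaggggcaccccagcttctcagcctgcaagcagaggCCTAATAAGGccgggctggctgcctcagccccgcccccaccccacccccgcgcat
Cnn2: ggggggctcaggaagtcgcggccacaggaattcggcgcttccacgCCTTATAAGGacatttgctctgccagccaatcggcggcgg
Vcl: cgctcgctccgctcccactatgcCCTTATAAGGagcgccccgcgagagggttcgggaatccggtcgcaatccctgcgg
Fhl1: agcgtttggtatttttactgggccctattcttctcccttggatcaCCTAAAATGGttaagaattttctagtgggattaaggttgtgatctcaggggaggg
Actc1: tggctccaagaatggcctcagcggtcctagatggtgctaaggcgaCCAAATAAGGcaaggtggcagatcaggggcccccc
Asb2: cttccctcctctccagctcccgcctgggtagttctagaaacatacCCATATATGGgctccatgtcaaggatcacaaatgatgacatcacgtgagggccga
A match is a stretch of letters in a promoter and no measure of binding. The window of Acta2 held no match to the strict form. Boxes that depart from that form were not searched for, so a window without a match may still hold one. Tagln, Myh11 and Actg2 had no promoter entry.

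Muscle cells were described against the 4497 other kept E17.5 cells, and against 104 collagen cells in which Col1a1, Col1a2 and Col3a1 made up at least 0.5% of UMIs below the muscle cut. The collagen cells also belong to the 4497. UMIs summed over each set came to 821217 for muscle cells, 76105733 for the other cells and 682949 for collagen cells, and the median cell held 7128, 11726 and 6154.5 UMIs. Levels are counts scaled to 1000000 UMIs of those sums (CPM), counted at the 3′ end. All deposited barcodes of the E17.5 library held 77677622 UMIs, and those of the other libraries 38648331 to 90674425. The E17.5 library shared 22 cell barcodes with another library, and none of the 105 muscle cells was among them.

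The rule genes, which chose the cells and are therefore given as a description, encode actins, a myosin and an actin-binding protein. On GRCm38 they lie at chr19:34241090-34255590 (Acta2), chr9:45929619-45936058 (Tagln), chr6:83512905-83536265 (Actg2) and chr16:14194535-14291372 (Myh11), all on the - strand. Acta2, smooth muscle alpha-actin, ran from 4673 to 39300 CPM over the 105 cells with a median of 16709, and its summed level was 18007 CPM against 15.8 in all other cells and 612 in collagen cells. Tagln, the actin-binding protein transgelin, stood at 13027, 8.19 and 331 CPM in the same sets. Actg2, the enteric gamma-actin typical of visceral muscle, varied far more from cell to cell, from 146 through a median of 6444 to 43391 CPM. Its summed level was 12324 CPM in muscle cells and 2.84 CPM in all others. Myh11, the smooth muscle myosin heavy chain, was detected in 104 of 105 cells, at a summed level of 1887 CPM against 1.42 in all other cells and 22.0 in collagen cells. After thinning every cell to 2000 UMIs, which left out 2 muscle and 188 other cells, Myh11 was found in 92.2% of muscle cells and 0.19% of the others, compared with 99.0% and 1.11% without thinning.

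The cut fell in a sparsely filled range. The muscle share had a median of 3.99% and reached 10.6%, while 4245 of the 4602 kept cells lay below 0.01%. The lowest muscle cell had 1.05% and the highest cell outside 0.971%, with 12 cells between 1% and 1.5% and 13 between 0.5% and 1%. Outside, 6 of those 13 cells were also above the collagen cut. Within the 105 muscle cells, 10 had a collagen share of at least 0.5%, and the collagen share spanned 0.0470% to 1.12% with a median of 0.243%. In the plot of muscle share against collagen share, muscle cells formed a band to the right that met the collagen cells near the cut.

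**Figure D1:**
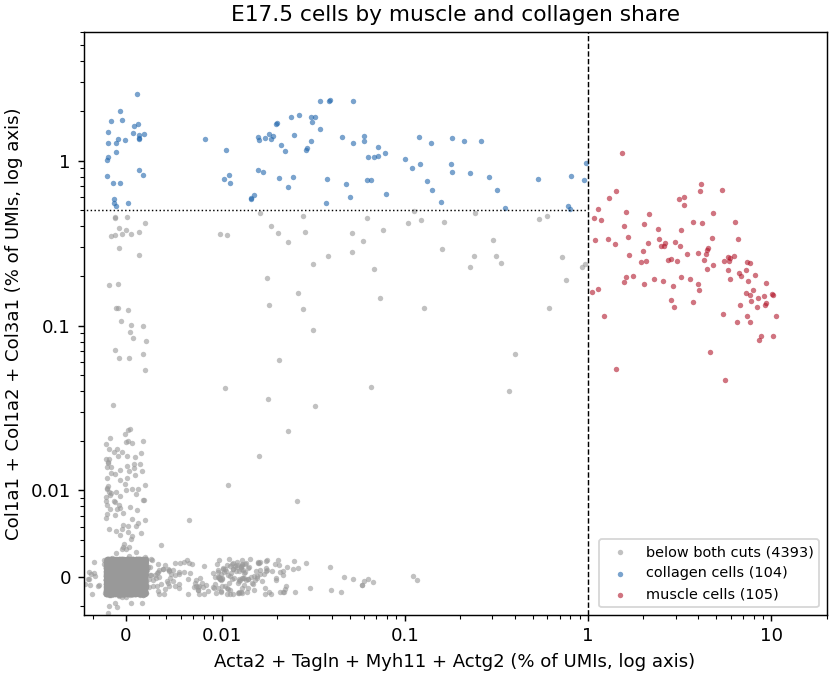
Each point is a kept E17.5 cell; the horizontal axis is the share of UMIs from the 4 rule genes and the vertical axis the share from 3 collagen genes, both in percent on log axes with 0 placed at the left and lower edges and spread slightly. The dashed line is the 1% muscle cut and the dotted line the 0.5% collagen cut; the 105 muscle cells lie right of the dashed line, and 10 of them reach the height of the collagen cells.

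Endothelial, neural and epithelial markers were scarce in the muscle cells. Every one of the 5 endothelial genes Cdh5, Kdr, Tek, Esam and Cldn5 was at 0 UMIs, which allows up to 3.65 CPM at the limit of 3 counts, and Pecam1 had 1 UMI. Of the 10 neuron and glia genes, 6 were at 0, among them Ret, Elavl3, Tubb3, Sox10 and Fabp7, as were 4 of the 6 immune genes (Ptprc, Csf1r, Tyrobp and Fcer1g). Of the other 2, C1qa had 8 UMIs in 3 cells, and Lyz2, the lysozyme of macrophages, had 19 UMIs in 16 cells, a level of 23.1 CPM against 0.512 in all other cells. Of the 16 striated muscle genes 3 were at 0, the skeletal regulators Myog and Myod1 and the giant sarcomere protein gene Ttn, but the list summed to 951 CPM and made up at least 0.1% of UMIs in 32 of 105 cells. The epithelial list summed to at most 0.255% of UMIs in any muscle cell against a median of 0.502% in all other cells, and all 6 of its genes were at least 4-fold lower. Epcam, the epithelial adhesion molecule, stood at 56.0 CPM in muscle cells and 1820 CPM in the others. Acinar enzyme UMIs passed 0.5% in 4 muscle cells, 1 of which held 8.24%; the chymotrypsinogen gene Ctrb1 had a summed level of 1193 CPM in muscle cells, 1116 in collagen cells and 8472 in all other cells.

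Markers of vascular mural cells gave a mixed picture. Rgs5, a regulator of G-protein signalling, and Kcnj8 and Abcc9, which form a potassium channel, stood at 111, 106 and 73.1 CPM, with UMIs in 38, 52 and 40 of 105 cells. Thinned to 2000 UMIs, these shares were 18.4%, 29.1% and 16.5%, against 0.487%, 0.812% and 0.673% of all other cells. Of the 8 mural genes 4 were compared with all other cells and each was at least 4-fold higher (8.79% of all genes compared were), but all 4 passed the filter on low levels only through muscle cells. The defining pericyte genes had few UMIs or none: Pdgfrb had 1 UMI, Notch3 had 2 and Higd1b had 0. Higd1b was at 0 in all kept E17.5 cells, so its absence is not particular to muscle cells. Against collagen cells 1 of 7 was at least 4-fold higher, the adhesion molecule Mcam (49.9 against 8.79 CPM), and 2 were lower (2.55% and 4.1% of all genes compared); Kcnj8 and Abcc9 were at a similar level (ratios 0.893, 0.652 to 1.22, and 1.16, 0.771 to 1.76). Mcam passed the filter against collagen cells only through its muscle level. Kit, 1 of 3 listed genes of the interstitial cells of Cajal that pace gut contraction, had 4 UMIs in 4 cells. The 3 genes summed to 57.2 CPM in muscle cells and 36.6 CPM in collagen cells. Of the 2 compared, 1 was at least 4-fold higher than in all other cells, and passed only through muscle cells. Neither gene differed 4-fold from collagen cells. Free RNA was not tested for; the shares of cells with a UMI given for other cells are the level to read those of muscle cells against.

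Contractile genes, none of them used by the rule, were higher in muscle cells for 26 of 27 genes compared with all other cells. A gene was compared where its mean level over the 2 sets was at least 10 CPM, and called where the ratio of CPM + 1 was at least 4-fold. Of the 28 contractile genes, 27 passed this filter against all other cells, and 26 of them were at least 4-fold higher, with a median log2 ratio of 5.84. Over all 8324 genes compared, 8.79% were at least 4-fold higher and 9.14% at least 4-fold lower, and the median log2 ratio was -0.11. Against collagen cells 21 of 27 were at least 4-fold higher and none lower, with a median of 3.00, where 2.55% of the 8243 genes compared were higher, 4.1% were lower and the median was -0.22. These came to 210 higher and 338 lower genes; under TMM scaling, which moved the median of all genes against collagen cells by 0.25 to 0.03, they came to 262 and 263. Log2 ratios against collagen cells between -0.25 and 0 therefore change sign with the scaling. The filter favours genes high in muscle cells: 18 of the 27 passed it against all other cells, and 5 of the 27 against collagen cells, only through their muscle level. Of the remaining 9 and 22 genes, 8 and 16 were at least 4-fold higher. The same holds for other lists, in which 11 of 14 transcription factors, 10 of 12 calcium, 10 of 15 contraction signalling, 16 of 19 matrix, 9 of 13 hedgehog and BMP and 9 of 13 niche genes passed only so against all other cells; their counts and medians against those cells describe the genes that passed and support nothing by themselves. Against collagen cells, 5 of 16 transcription factors, 7 of 13 calcium and 4 of 16 contraction signalling genes passed only through their muscle level. So did 2 of 22 matrix, 6 of 15 hedgehog and BMP and 5 of 18 niche genes. Of the rest, 0 factors, 0 calcium, 2 contraction signalling, 1 matrix, 0 hedgehog and BMP and 1 niche gene were at least 4-fold higher. The counts of these lists against collagen cells carry the same limit. Ldb3, a Z-disc protein, was the contractile gene below the filter both times, with 5 UMIs.

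The regulatory light chain Myl9 ran from 1456 to 17343 CPM over the 105 muscle cells, with a median of 5937. No muscle cell lacked it, and its summed level was 6920 CPM against 7.56 in all other cells, a ratio of 916 (841 to 1000). Tpm2, a tropomyosin that lies along the actin filament, had a summed level of 8455 CPM and a ratio of 787 (732 to 847). Des, the intermediate filament desmin, reached 9153 CPM in the highest cell, was missing from 3 of 105 cells, and had a ratio of 857 (746 to 990). Cnn1, the calponin that marks differentiated smooth muscle, was at 922 CPM in muscle cells, 0.565 in all other cells and 10.2 in collagen cells, where it came from 2 cells. Mylk, the kinase that triggers contraction, was at 2719 CPM, against 27.9 in all other cells and 61.5 in collagen cells. Lmod1, which nucleates actin filaments, was at 229 CPM against 0.289 in all other cells.

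Some filament genes set muscle cells apart from the epithelial majority but little from collagen cells. Tpm4, the broadly expressed tropomyosin, was 273 CPM in muscle and 261 CPM in collagen cells, a ratio of 1.05 (0.856 to 1.28). Fhl1 and Tns1 gave ratios of 1.45 (0.915 to 2.33) and 0.978 (0.487 to 1.99). Vcl, vinculin, which links filaments to adhesions, was 4.82-fold higher (3.36 to 7.12) and Cnn2 3.36-fold higher (2.64 to 4.30). The other genes of the named rule against all other cells included Cald1 (1615 CPM against 10.1), Synpo2 (234 against 0.578), Pdlim3 (379 against 1.17) and Tgfb1i1, the focal adhesion protein Hic-5 (587 against 2.31). Sh3bgr was at 617 CPM in muscle cells, 2.13 in all other cells and 2.93 in collagen cells, where it had 2 UMIs.

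**Figure D2:**
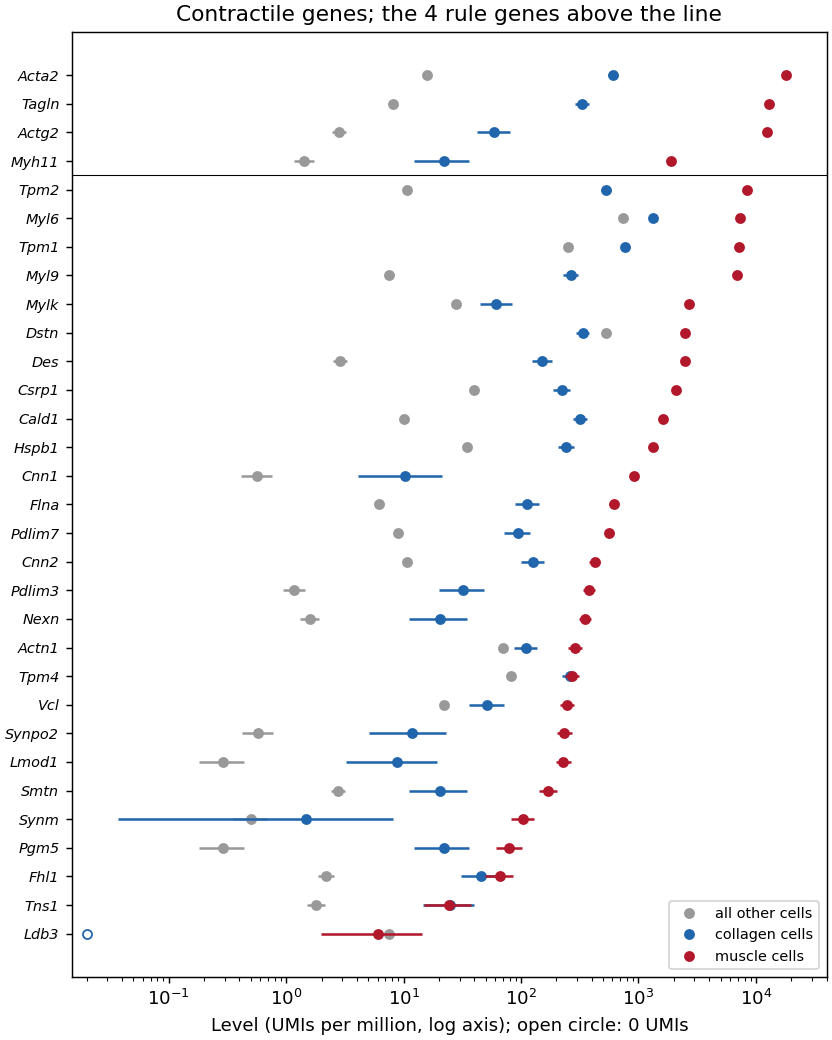
Levels in CPM on a log axis for 27 of the 28 contractile genes, with the 4 rule genes above the line; points are sums over muscle cells, collagen cells and all other cells of the E17.5 library, and bars are 95% Poisson intervals. Muscle cells lie to the right for all contractile genes shown but Ldb3, Tns1, Fhl1 and Tpm4, where muscle and collagen intervals meet or muscle lies within those of the other sets.

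Transcription factors split into those of muscle cells and those of gut mesenchyme in general. Against all other cells, 10 of 14 compared factors were at least 4-fold higher and 1 lower, with a median log2 ratio of 4.60; against collagen cells 2 of 16 were higher and 1 lower, with a median of 0.39. The 2 higher factors were Myocd and Hand1, which both passed the filter only through their muscle level (2.55% of all genes compared were higher). Myocd, the SRF partner, was at 82.8 CPM (64.3 to 105) in muscle cells, 0.223 in all other cells and 2.93 in collagen cells, where it rested on 2 UMIs. Hand1, a helix-loop-helix factor, was at 93.8 CPM in muscle cells, 0.210 in all other cells and 10.2 in collagen cells. Srf itself differed less, at 70.6, 24.4 and 42.5 CPM.

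Several factors of the early gut mesenchyme were at similar levels in collagen cells, but Foxf1 was higher in muscle cells. Foxf1, a forkhead factor that acts downstream of hedgehog signals, was at 308 CPM in muscle and 87.9 in collagen cells, a ratio of 3.51 (2.64 to 4.73). Nkx2-3, Tcf21, Hand2 and Meis1 gave ratios against collagen cells of 0.802, 0.887, 1.22 and 1.06, and each interval spanned 1. Gata6 was the lower factor, at 8.52 CPM in muscle cells against 97.3 in all other cells and 98.1 in collagen cells. The stomach factor Barx1 was at 0 UMIs in muscle cells, as was Nkx3-2. Mkl1 and Mkl2, further SRF partners, had 8 and 6 UMIs.

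Some genes of calcium handling and contraction control were higher in muscle cells, while others were close to the other sets. Of the calcium and channel genes, 8 of 12 compared were at least 4-fold higher than in all other cells and 4 of 13 than in collagen cells, with none lower and median log2 ratios of 3.77 and 1.28. The 4 against collagen cells were Cacna1c, the pore of the L-type calcium channel (35.3 against 4.39 CPM), Ryr2, a calcium release channel (31.7 against 2.93), Pln, which brakes the calcium pump (25.6 against 2.93), and Kcnma1, a large-conductance potassium channel (42.6 against 7.32). Each of these rested on 5 or fewer UMIs in collagen cells. All 4 passed the filter only through their muscle level (2.55% of all genes compared were higher). Atp2a2, the calcium pump of the sarcoplasmic reticulum, was at 149 CPM against 125 in all other cells, a ratio of 1.19 (0.984 to 1.42). Gjc1, a gap junction protein, was at 70.6 CPM in muscle and 99.6 CPM in collagen cells.

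In contraction signalling, 12 of 15 genes compared were at least 4-fold higher than in all other cells (8.79% of all genes compared were). Against collagen cells 5 of 16 were higher (2.55% of all genes compared were). None was lower in either comparison, and the medians were 4.88 and 1.50. The 5 included Mrvi1 (62.1 against 2.93 CPM) and Prkg1 (45.1 against 5.86), which act in the relaxing nitric oxide and cyclic GMP pathway. Another was Rgs2, a regulator of G-protein signalling, at 168 CPM and with 13 UMIs in collagen cells. The rest were the myosin phosphatase subunits Ppp1r12a (404 against 87.9) and Ppp1r12b (216 against 27.8). Against collagen cells 4 of the 16 passed the filter only through their muscle level. Of the other 12, 2 were at least 4-fold higher. Chrm2, the muscarinic receptor that is most abundant on gut muscle, was at 140 CPM (116 to 168) and Chrm3 at 20.7 CPM (12.1 to 33.1). Gucy1b1, a subunit of the nitric oxide receptor, was shared with collagen cells at 111 and 102 CPM. The kinases Rock1 and Rock2 and their activator Rhoa were close to the other cells, with ratios of 0.930, 1.20 and 1.41. The neurokinin receptor Tacr2 had 1 UMI.

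Matrix genes were mostly lower in muscle cells than in collagen cells. Against all other cells, 18 of 19 compared matrix and adhesion genes were at least 4-fold higher (8.79% of all genes compared were), with a median log2 ratio of 4.51. Against collagen cells 2 of 22 were higher and 5 lower (2.55% and 4.1% of all genes compared were), with a median of -1.12. The collagen cells were chosen by their collagen RNA, and the part of that choice in these values was not tested. The 2 higher were integrin subunits, Itga1 (138 against 23.4 CPM) and Itga5 (46.3 against 10.2). Itga5 passed the filter only through its muscle level. The 5 lower were Mfap5 (13.4 against 329), Fbln1 (36.5 against 411), Nid1 (35.3 against 209), Lama4 (12.2 against 65.9) and Postn (79.2 against 370). The basement membrane collagens Col4a1 and Col4a2 were at 312 and 185 CPM in muscle cells, 1.43-fold (1.16 to 1.76) and 1.60-fold (1.21 to 2.13) of collagen cells. Elastin (Eln) was at 57.2 CPM in muscle and 215 CPM in collagen cells.

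Most fibroblast markers in muscle cells lay between those of the other sets, but not Vim or Twist1. Against all other cells 7 of 8 genes compared were at least 4-fold higher (8.79% of all genes compared were), with a median log2 ratio of 4.00. Of the 8, 2 passed the filter only through their muscle level. A fibroblast list share of at least 0.5% was found in 58 of 105 muscle cells. The list, in both of these counts, includes the 3 collagen genes that chose the collagen cells. Of the 9 fibroblast genes compared with collagen cells beyond those 3, 7 were at least 4-fold lower (4.1% of all genes compared were). Their median log2 ratio was -3.70. Dcn, the proteoglycan decorin, was at 138 CPM in muscle and 3318 CPM in collagen cells, and Pdgfra at 4.87 and 89.3 CPM. Vim, the mesenchymal intermediate filament vimentin, was equal at 2427 and 2425 CPM, with a ratio of 1.00 (0.937 to 1.07). Twist1 was at 36.5 and 22.0 CPM, with overlapping intervals. Markers of mesothelium, the outer lining of the gut, were low in muscle cells and present in collagen cells. All 5 were at least 4-fold lower (4.1% of all genes compared were), and Wt1 was at 0 UMIs against 116 CPM, at least 31.7-fold lower. Wt1 had UMIs in 40 of 104 collagen cells and Upk3b in 11. Without the 11 collagen cells of high mesothelial share and 1 of high enteroendocrine share, an alternative chosen after seeing the data, the contractile count stayed at 21 of 27 and the matrix list gave 1 higher and 5 lower of 22.

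BMP antagonists and ligands to nerves were among the genes higher in muscle cells than in collagen cells. In the hedgehog and BMP list, 8 of 13 genes compared with all other cells were at least 4-fold higher and none lower (median log2 ratio 2.10), and against collagen cells 3 of 15 were higher and 1 lower (median 0.15). All 3 passed the filter only through their muscle level (2.55% of all genes compared were higher and 4.1% lower). Among the 3 were Grem1 and Nog, which bind and block BMPs and are known to sustain the crypt stem cell zone. Grem1 had UMIs in 46 of 105 muscle cells, with a median of 0, an upper quartile of 170 and a highest value of 1391 CPM. It was found in 13 of 4497 other cells and in 1 of 104 collagen cells. Its summed level was 152 CPM (127 to 181) against 19 UMIs in all other cells, and 1 UMI in collagen cells gave a ratio of 104 (18.3 to 4138). Nog was at 53.6 against 4.39 CPM, a ratio of 12.2 (3.91 to 61.4). The lower gene, the ligand Bmp4, was at 4.87 CPM in muscle and 30.7 CPM in collagen cells.

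Hedgehog response genes gave differing values against collagen cells. Ptch1, the hedgehog receptor, was at 79.2 and 61.5 CPM (ratio 1.29, 0.860 to 1.94), and Gli1 had 8 UMIs in each set. Hhip, a hedgehog-binding inhibitor, was at 37.7 and 8.79 CPM, a ratio of 4.30 (1.77 to 12.6) that is just under 4-fold on the CPM + 1 scale (log2 ratio 1.99).

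Among niche ligands, 9 of 13 genes compared were at least 4-fold higher than in all other cells (median log2 ratio 3.51). Against collagen cells 2 of 18 were higher and 1 lower, with a median of -0.11. The 2 higher were Gdnf (21.9 against 2.93 CPM) and Nrtn (114 against 27.8 CPM), which support enteric neurons. Gdnf passed the filter only through its muscle level (2.55% of all genes compared were higher and 4.1% lower). The lower gene was Wnt4, at 0 UMIs against 102 CPM, at least 28.1-fold lower. Rspo3, a Wnt amplifier of the stem cell niche, was at 155 CPM in muscle cells, 0.841 in all other cells and 58.6 in collagen cells. Rspo2 and Fgf10 were at 0 UMIs in muscle cells. With the 12 collagen cells left out, this list gave 1 higher and 3 lower of 18.

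**Figure D3:**
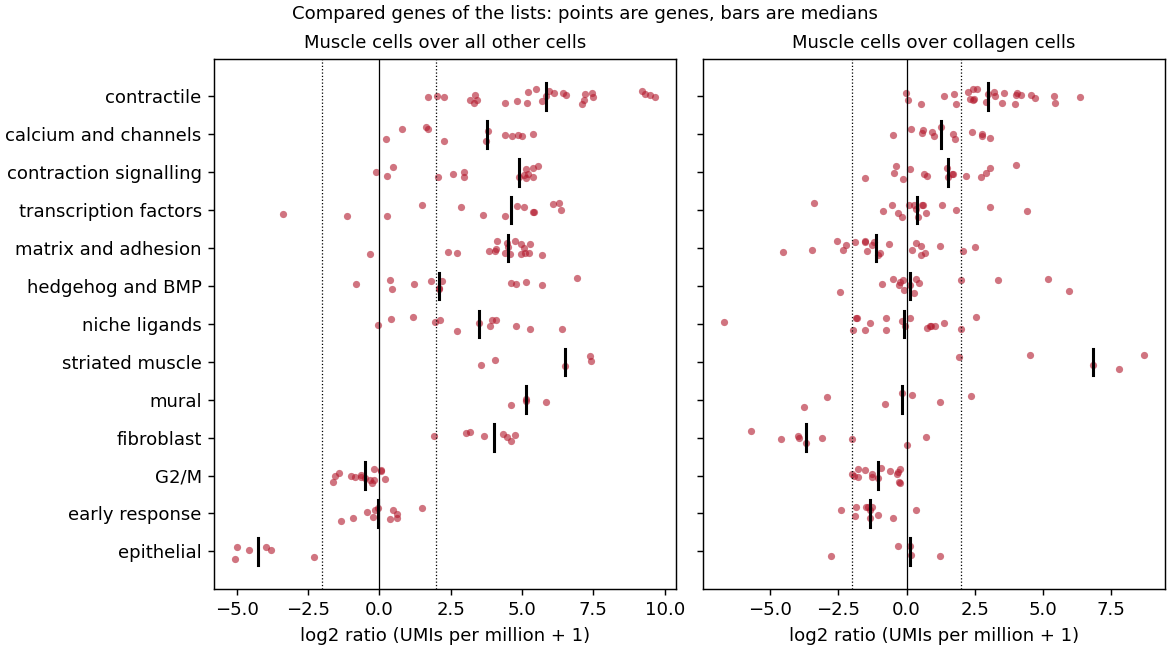
Log2 ratio of CPM + 1 in muscle cells over all other cells (left) and over collagen cells (right) for the compared genes of 13 lists; points are genes, bars list medians, and dotted lines 4-fold. Contractile genes lie right of 0 in most cases on both sides, while matrix, mesenchymal factor and ligand genes lie right on the left side and around or below 0 on the right side; points between -0.25 and 0 on the right change sign with the scaling.

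Several genes far above collagen cells are best known from heart and skeletal muscle. Of the 16 striated muscle genes, 5 passed the filter on low levels each time, all through their level in muscle cells save Tnnt1 against collagen cells, so no count is given and the members are described singly. Tnnt2, the cardiac troponin T, had UMIs in 58 of 105 muscle cells, with a median of 99.8 and a highest value of 3026 CPM. No collagen cell held a UMI of Tnnt2, and its summed level of 412 CPM was at least 93.7-fold higher. Ckm, the muscle creatine kinase, was at 222 CPM in 28 cells, at least 50.5-fold higher, and Actc1, cardiac alpha-actin, at 112 CPM in 25 cells, at least 25.5-fold higher. Myh7, the slow myosin heavy chain, was at 21.9 CPM, at least 4.99-fold higher. Tnnt1, the slow skeletal troponin T, was at 158 CPM against 12.4 in all other cells and 41.0 in collagen cells. Skeletal actin (Acta1) went the other way from all other cells, with 4 UMIs (4.87 CPM) against 13.5 CPM, and Tnni1, Tnnc1 and Tnnc2 had 2 each.

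Pcp4, a calmodulin-binding peptide, had the highest log2 ratio against collagen cells among the genes named by the rule. It had UMIs in 40 of 105 muscle cells (38.1%, or 30.1% after thinning), in 2.82% of all other cells (1.00% after thinning) and in no collagen cell. Its summed level was 423 CPM, at least 96.2-fold above collagen cells. Others named by the rule were Fbxl22, a sarcomeric F-box protein (466 against 5.86 CPM), Tm6sf1 (197 against 1.46), Asb2, a ubiquitin ligase subunit that targets filamins (139 against 1.46), Hspb6, a small heat shock protein of muscle (135 against 1.46) and Pcp4l1 (133 against 1.46). Glipr1 was at 64.5 CPM, at least 14.7-fold higher. Asb2 was also nearly absent from all other cells, with 5 UMIs in 4497 cells. The brain creatine kinase Ckb, named after its values were seen, was at 2987 CPM in muscle cells and 63.0 in collagen cells.

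Of the 761 genes at least 4-fold lower than in all other cells, the rule named 8. They were the hormone genes Cck (24.4 against 6139 CPM), Sct (60.9 against 9343), Pyy (12.2 against 2082) and Ins2 (15.8 against 3352), the granule protein gene Scg2 (0 UMIs, at least 64.0-fold lower), the lipoprotein gene Apob (0 UMIs, at least 37.9-fold lower), the retinol carrier Rbp4 (3 UMIs) and Myl7, the atrial light chain (1 UMI). Myl7 stood at 298 CPM in all other cells. Low UMIs of Sct and Ctrb1 were spread over 32 and 62 of 105 muscle cells. Against collagen cells the rule named Wt1, Cxcl1 (1 UMI against 233 CPM), Wnt4, Fndc1 (at least 16.4-fold lower), Cd34 (2.44 against 177 CPM), Stmn2 (3.65 against 266), Sct and Cck. The last 2 sat mainly in a few collagen cells: 1 collagen cell had an enteroendocrine share of 6.33%.

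Fewer muscle cells than collagen cells carried G2/M RNA. After thinning to 2000 UMIs, 14 of 103 muscle cells had at least 3 UMIs over the 15 G2/M genes, or 13.6% (7.63% to 21.8%), against 27 of 97 collagen cells, or 27.8% (19.2% to 37.9%), and 1300 of 4309 other cells, or 30.2%. The muscle and collagen intervals overlapped. Without thinning the shares were 28.6%, 40.4% and 46.2%. Of the 15 G2/M genes none was 4-fold different from all other cells, with a median log2 ratio of -0.49, and Nusap1 was over 4-fold lower than in collagen cells (median -1.05). Among the 15 compared S phase genes none was called, with medians of -0.12 and -0.90. Early response genes such as Fos and Jun, which can also be induced while tissue is dissociated, were lower than in collagen cells for 10 of 11 genes, 1 of them, Atf3, by more than 4-fold (median -1.35). Hspa1a was the other one, at 167 and 132 CPM. The mitochondrial share moved with these sets, with a median of 4.31% in muscle and 2.90% in collagen cells; its part in the result was not tested.

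Bmi1, the gene of the reporter locus, was found in 10 of 105 muscle cells as 10 UMIs, a level of 12.2 CPM (5.84 to 22.4). All other cells stood at 10.3 CPM (9.57 to 11.0) and collagen cells at 4.39 CPM (0.906 to 12.8). The eGFP sequence had 2 UMIs in muscle cells. A difference in Bmi1 between muscle and other cells was not detectable at this depth.

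The 105 muscle cells differed among themselves. They were divided by their muscle share into 22 cells of 1% to 2%, 44 cells of 2% to 5% and 39 cells over 5%, a division made on the rule's own measure, so its order in the rule genes and close partners is a description. Actg2 stood at 1485, 5544 and 25923 CPM in the 3 groups while Acta2 stood at 8105, 15336 and 26685 CPM. As a share of UMIs from 6 actin genes, Actg2 therefore made up 7.57%, 16.7% and 39.1%, Acta2 41.3%, 46.1% and 40.3%, and the cytoplasmic actin Actb 33.9%, 25.3% and 14.9%. In collagen cells Actg2 made up 0.730% and Actb 57.3% of actin UMIs. Median depth was 7200, 6549.5 and 7270 UMIs.

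Genes outside the rule followed the muscle share unevenly. Des stood at 800, 1738 and 4254 CPM and Ckb at 1102, 2318 and 4810 CPM in the 3 groups. Ckm, Pcp4 and Actc1 were close to absent below 5%, at 0, 6.08 and 581 CPM, at 5.48, 30.4 and 1085 CPM, and at 0, 12.2 and 284 CPM. Thus 26 of the 28 cells with Ckm and 33 of the 40 with Pcp4 had a muscle share over 5%. Smtn, smoothelin, was at 93.2, 69.9 and 323 CPM, and the filament protein Synm at 11.0, 33.4 and 233 CPM. In contrast, Lmod1 (181, 240 and 245 CPM) and Myocd (65.8, 100 and 74.3 CPM) had overlapping intervals throughout. Genes that went the other way were Dlk1, a fetal Notch-related protein (2159, 1446 and 210 CPM), the imprinted RNA Meg3 (1814, 1121 and 410 CPM), and Cdkn1c, a cell cycle inhibitor (2455, 1701 and 530 CPM).

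**Figure D4:**
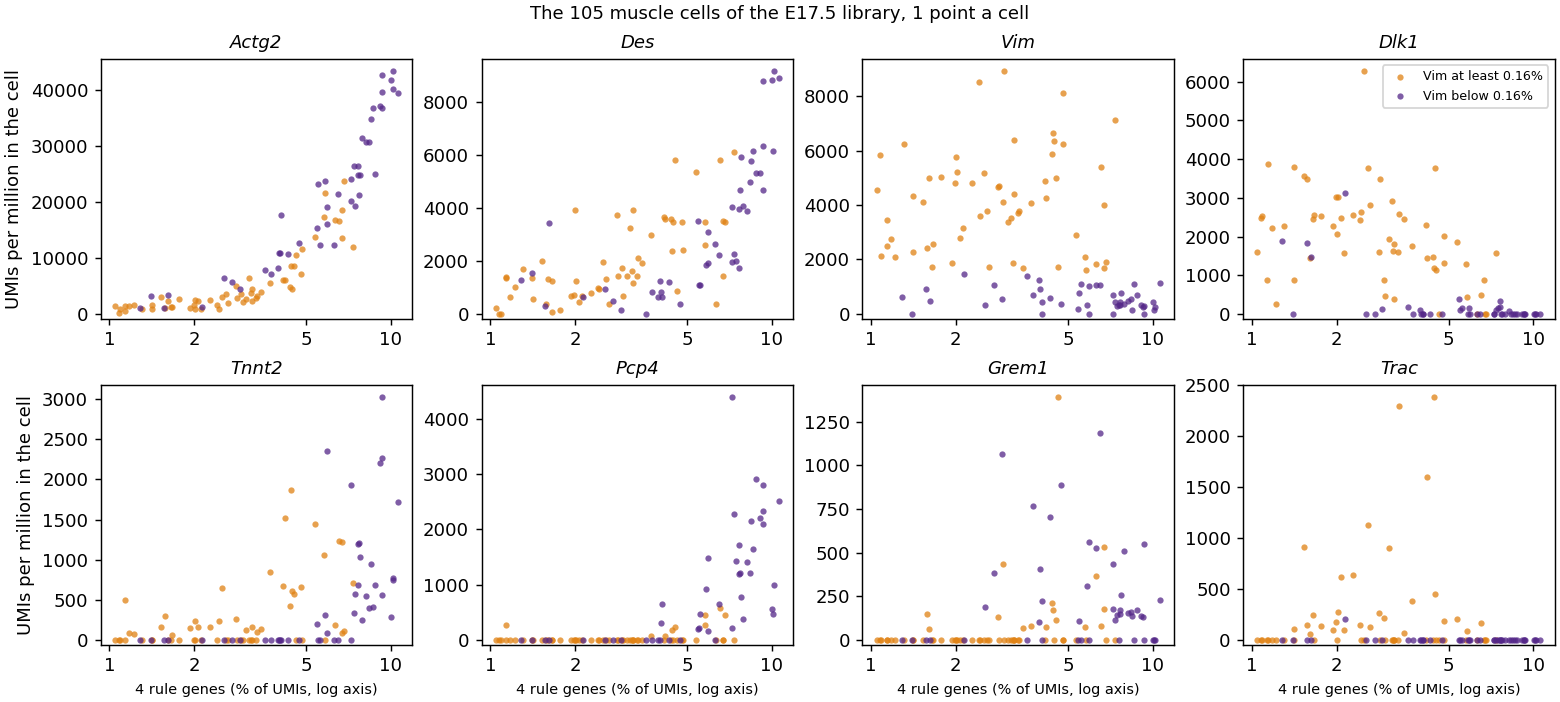
Level of 8 genes in CPM of each cell against the share of UMIs from the 4 rule genes in percent (log axis), 1 point for each of the 105 muscle cells; orange cells have at least 0.16% and purple cells less than 0.16% of UMIs from Vim. Pcp4 is held mainly by cells over 5%, Dlk1 by cells of lower share, Trac almost entirely by orange cells, and Grem1 more often by purple ones.

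Vim also differed among the muscle cells, and partly with the muscle share: 18 of 22 cells of 1% to 2% were Vim-high in the split given next, but 9 of 39 over 5%. With a cut at 0.16% of UMIs, chosen after the values were seen, 59 cells were Vim-high and 46 Vim-low, with median muscle shares of 2.84% and 6.38%; 13 cells lay between 0.12% and 0.20%, so the classes are ranges of 1 measure. To hold the muscle share roughly even, both classes were compared within the 2% to 5% group, 32 Vim-high and 12 Vim-low cells with median muscle shares of 3.16% and 3.85% and median depths of 6173.5 and 9671.5 UMIs. Acta2 is part of the share that was held even. Outside the rule, Mylk (2035 and 1925 CPM) and Cnn1 (835 and 790 CPM) had overlapping intervals, while Tpm1 was at 7012 CPM (6668 to 7370) in Vim-high and 5151 CPM (4731 to 5598) in Vim-low cells and Tpm2 at 6985 and 5384 CPM. The rule gene Myh11 was at 1827 and 1283 CPM. Genes named in this comparison were chosen after their values were seen, and 12 cells of 1 library give the Vim-low side little precision.

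Vim-high cells of the 2% to 5% group held Trac, Tnnt2, Tnnt1, Dlk1, Itga8 and Slit2. Trac, the locus of the T cell receptor alpha constant region, had a summed level of 438 CPM (355 to 534), with UMIs in 17 of 32 cells. It was uneven among them, and the highest cells stood at 2383, 2294 and 1599 CPM. The 12 Vim-low cells held 1 UMI of Trac. Ptprc, the pan-leukocyte gene, was at 0 UMIs in all 105 muscle cells, so Trac came without that T cell marker. Tnnt2 was at 343 CPM (270 to 429), Tnnt1 at 311 CPM (242 to 394), and both Itga8, an integrin, and Slit2, a guidance ligand, at 94.8 CPM (58.7 to 145). Each of these 4 was at 0 UMIs in Vim-low cells, which allows up to 27.9 CPM at the limit of 3 counts. Tnnt2 had UMIs in 18 of the 32 Vim-high cells and reached 1872 CPM in the highest. Dlk1 was at 2067 and 167 CPM, Col1a1 at 1764 and 688 CPM, and Des at 2225 and 735 CPM. Over 5% of muscle share, with 9 Vim-high and 30 Vim-low cells, Itga8 and Slit2 were at 0 UMIs in both classes, and Tnnt2 stood at 637 CPM in Vim-high and 850 CPM in Vim-low cells. There Dlk1 was at 662 and 52.3 CPM, Col1a1 at 1124 and 593 CPM, and Trac at 4 UMIs and 0 UMIs.

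Some secreted antagonists and signalling genes were higher in the Vim-low cells of the same group. Igfbp2, which binds insulin-like growth factors, stood at 1153 CPM (959 to 1375) in them and 176 CPM in Vim-high cells. Grem1 was at 418 and 76.7 CPM, Nog at 149 and 22.6 CPM, and the activin antagonist Fst at 232 and 9.02 CPM. The endothelin receptor Ednrb was at 316 CPM, with UMIs in 11 of 12 Vim-low cells against 2 of 32 Vim-high cells. Hhip (214 CPM, 136 to 321) and Sema3a, a repellent of growing axons (186 CPM, 114 to 287), were at 0 UMIs in the Vim-high cells, which allows up to 13.5 CPM. Aldh1a2, a retinoic acid synthesis enzyme, was at 139 and 4.51 CPM. Actg2 was also higher in Vim-low cells, at 8136 against 4287 CPM. Over 5%, Vim-high and Vim-low cells had 787 and 606 CPM of Igfbp2, 74.9 and 78.4 of Fst, and 125 and 144 of Ednrb. Each of these had overlapping intervals, and Hhip had 2 and 6 UMIs. Grem1 (137 and 213 CPM), Sema3a (12.5 and 52.3 CPM) and Nog (12.5 and 91.5 CPM) were still lower in Vim-high cells there, with overlapping intervals. With 9 Vim-high cells over 5%, overlap cannot show whether a difference was lost.

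**Figure D5:**
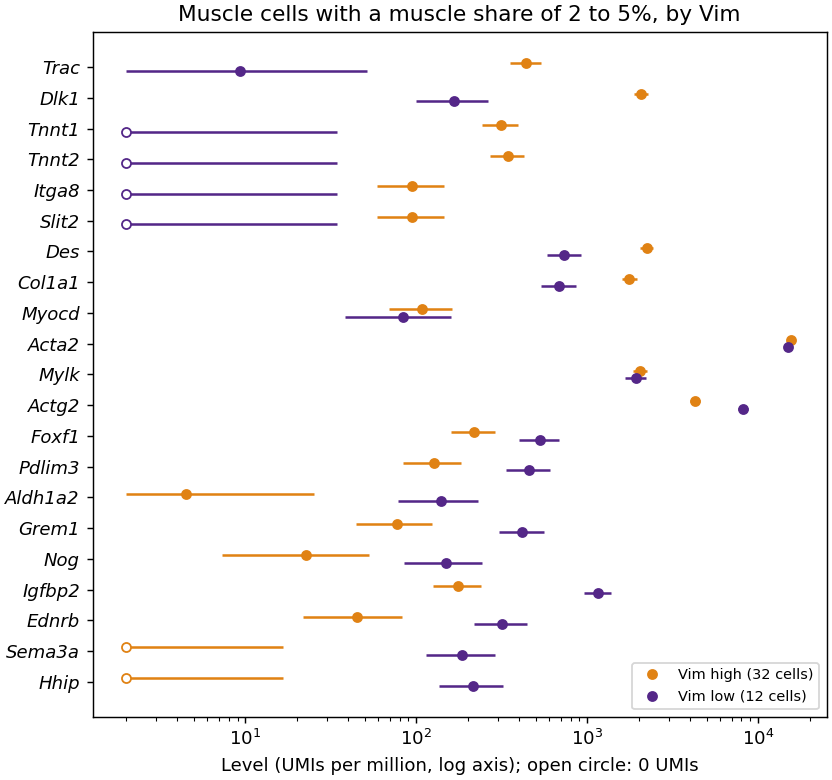
Levels in CPM (log axis) of 21 genes in the muscle cells with a muscle share of 2% to 5%, summed over 32 Vim-high (orange) and 12 Vim-low (purple) cells, with 95% Poisson intervals; open circles are 0 UMIs. Genes at the top are higher in Vim-high cells, Myocd, Acta2 and Mylk in the middle lie close together, Acta2 being part of the share held even, and genes from Actg2 down are higher in Vim-low cells.

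Shared detection was counted over the 105 cells. Trac was found in 29 cells and Ckm in 28, and no cell held both. Ckm and Pcp4 shared 26 cells, which is 92.9% of the Ckm cells and 65% of the Pcp4 cells. The muscle share was not held even in these counts. Of the 39 cells over 5%, 26 held Ckm, 33 held Pcp4 and 3 held Trac. Nog was found in 24 cells, of which 18 also held Grem1. Tnnt2, by contrast, was found in Vim-high cells at middle shares and again in Vim-low cells over 5%, where it stood at 850 CPM.

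The rule found almost no such cells in the other libraries. Collagen cells were missing there too, with 0 in each library against 104 at E17.5. At E12.5, 1 of 4226 kept cells passed (0.0237%, 0.000599% to 0.132%), at a muscle share of 1.53%. Among adult cells none of 3788 passed (0 cells, Clopper-Pearson upper limit 0.0973%), and the highest cell had 0.0294%. After irradiation 0 of 3184 passed (upper limit 0.116%). Kept cells held 415 UMIs of Acta2 at E12.5, 15987 at E17.5, 0 in adults and 2 after irradiation. Median depth of kept cells was 18637.5 UMIs at E12.5, 3699.5 in adults and 8786 after irradiation. Age, treatment, sort and library cannot be told apart across these samples.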

How the data were processed

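Gene counts per cell barcode (UMI counts, whole numbers, not normalized) were deposited by the authors for 4 libraries; per the submitters' processing notes they were made with Cell Ranger 3.1.0 and the mm10 build, and per the labels' protocols from 10x 3′ version 3 libraries of sorted cells. The step from reads to counts beyond this is not given in the sources used here. Kept cells had at least 500 genes and at most 20% mitochondrial UMIs. UMIs were summed over muscle, collagen and all other cells and scaled to CPM; ratios used CPM + 1, genes with a mean of at least 10 CPM, and no rule genes (or the 3 collagen genes against collagen cells). A gene at 0 was bounded at 3 counts over the set. With 1 library a group no significance test was made. The members, the 23 gene lists and the alternatives were chosen with earlier results of these data known. Named genes are the list members and, per comparison, the 12 highest and 8 lowest log2 ratios among genes found in at least 25% of the cells of the higher set, leaving out predicted genes and those that are sex-linked, mitochondrial or code for immunoglobulins, haemoglobins or ribosomal proteins; genes of the comparison by share and Vim, with Ckb, were chosen after their values were seen. Doublets were kept; removing the top Scrublet scores (scanpy 1.11.5) at 0.8% per 1000 barcodes was an alternative. The calculations were tested on simulated data. Software was Python 3.11.15, NumPy 2.4.6, SciPy 1.17.1, R 4.3.3 and edgeR 4.0.16, used here for TMM scaling only. RefSeq promoters (GRCm38.p6) were matched by symbol. Results for a few list members are not reported here.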

Additional observations from a re-analysis of the deposited data

How the results depend on the processing

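No paired analysis was possible because each group has 1 library. The contractile medians kept their direction under every alternative run. Against collagen cells, the median of all genes turned from -0.22 to 0.03 under TMM; without the 12 collagen cells the hedgehog and BMP median turned from 0.15 to -0.10 and that of niche ligands from -0.11 to 0.03. Totals without the rule genes turned 732 higher and 761 lower genes into 770 and 744. The share of muscle cells spanned 1.80% to 2.56%, with 1.80% at a muscle cut of 2%. With a pseudocount of 10 CPM, 415 genes were at least 4-fold higher and 404 lower than in all other cells, 111 and 124 against collagen cells, and the contractile median against all other cells was 4.54. Genes with a mean of at least 50 CPM gave 258 higher and 212 lower against all other cells, and 87 and 95 against collagen cells, where fewer genes are compared by construction. A mean of at least 5 CPM gave 556 genes lower than in collagen cells. At 2-fold the counts were 1307, 1552, 570 and 1324 in the same order. The contractile median against collagen cells stayed between 2.63 and 3.23. The G2/M share was 28.6% without thinning, 21.6% at the deepest thinning tried and 21.4% at a cut of 2 UMIs. Chosen after seeing the data were a second random draw for thinning, which gave 16.5%, and the collagen cells without high mesothelial or enteroendocrine shares. Removing 219 putative doublets, 2 of them muscle cells, gave a muscle share of 2.33%. Bmi1 rests on 10 UMIs, and 1 library a group leaves counting error as the only error measured.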
